A study of Rattus norvegicus with 6 samples.

Results

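Cxcl1, Cxcl2 and Cxcl3 are the 3 genes described here, chosen by their rat Ensembl identifiers (ENSRNOG00000002802, ENSRNOG00000002792 and ENSRNOG00000028043) from the 19133 genes measured, and each had a value in every library. Gene expression was measured in rat tenocytes, the resident cells of tendon, which were released from the Achilles tendons of Sprague–Dawley rats with collagenase and grown in culture. The control group (n = 3 libraries) received complete medium, and the IL-1β group (n = 3 libraries) received complete medium with 50 ng/mL of IL-1β, a proinflammatory cytokine, for 24 h. The labels name no allele or transgene. The same study also gave cells verapamil, but its RNA sequencing compared only control and IL-1β cells, and none of these libraries is labelled with verapamil. The study's methods speak of independent experiments in general, but neither they nor the labels say whether the 3 libraries of a group came from separate animals or cultures, so the p-values below measure the spread between these libraries only.

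The 3 genes encode small secreted proteins of the CXC chemokine family. They carry the Glu-Leu-Arg motif of the neutrophil-attracting members, signal through the receptor Cxcr2, and draw neutrophils from the blood towards injured or infected tissue. In fibroblasts and other stromal cells, IL-1β acts through its receptor and the kinases downstream of it on the transcription factor NF-κB, and chemokine genes of this family are well-known NF-κB targets. Cxcl1 is also known in the rat as CINC-1, Cxcl2 as MIP-2 and Cxcl3 as CINC-2.

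In the RefSeq gene table of the GRCr8 assembly, all 3 genes lie on chromosome 14. Cxcl2 and Cxcl1 are direct neighbours with 0 annotated genes between them, and 3 annotated genes, 1 of them protein-coding, lie between Cxcl1 and Cxcl3. RefSeq start-site sequences matched 2 of the 3 genes by symbol, Cxcl1 and Cxcl2. The 250 bases before each start are shown for these 2 genes. The window of Cxcl1 is chr14:17479322-17479571 and that of Cxcl2 is chr14:17467256-17467505 (GRCr8, minus strand, written 5′ to 3′ along the gene). Capitals mark the bases that match the NF-κB consensus on either strand.
Cxcl1: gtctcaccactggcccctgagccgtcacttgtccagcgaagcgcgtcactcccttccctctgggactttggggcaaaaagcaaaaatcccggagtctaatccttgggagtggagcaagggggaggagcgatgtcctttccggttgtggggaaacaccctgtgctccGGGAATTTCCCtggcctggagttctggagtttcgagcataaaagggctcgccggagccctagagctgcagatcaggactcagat
Cxcl2: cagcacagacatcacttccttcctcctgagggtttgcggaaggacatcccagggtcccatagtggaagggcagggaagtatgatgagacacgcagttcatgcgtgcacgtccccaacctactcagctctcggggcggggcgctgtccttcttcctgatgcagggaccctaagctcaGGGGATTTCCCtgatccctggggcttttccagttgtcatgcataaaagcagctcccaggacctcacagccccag

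In Cxcl1, the marked stretch holds GGGAATTTCC from 84 to 75 bases before the start, and a further match on the other strand overlaps it by all but 1 base. In Cxcl2, the marked stretch holds the overlapping matches GGGGATTTCC and GGGATTTCCC, from 74 to 64 bases before the start. An NF-κB consensus match on either strand was present in 6.33% of the 33469 RefSeq windows of this length. Closer to the start, both windows hold ATAAAA, letters that resemble part of a TATA box, from 47 to 42 bases before it in Cxcl1 and from 33 to 28 bases before it in Cxcl2. This motif on either strand was found in 18.6% of all windows, and both motifs together in 0.708%. The GC box GGGCGG was found in the window of Cxcl2 and in 30.5% of all windows, and the letters of the AP-1 motif (TGANTCA) and of the cyclic AMP response element (TGACGTCA) were in neither window, against 6.34% and 1.59% of all windows. The motifs were chosen with these sequences in view, and a match describes letters and not a bound site.

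The values are FPKM, in which the fragments on a gene are divided by its length and by the depth of the library. Division by depth alone does not make libraries fully comparable, so they were also scaled to each other before the tests (size factors 0.972 to 1.036). The low values step in whole multiples of 1 read, and the smallest whole reads that fit were taken for every gene, between 36506535 and 43098507 reads per library. Where the reads and the length of a gene share a factor, the true reads would be a multiple of these, while the FPKM values stay the same. The second principal component (8.46% of the variance over the 12408 genes tested) set the 2 libraries numbered 1 (20.7 and 21.96) apart from the other 4 (between −12.3 and −7.23). Results are therefore also given without those 2 libraries. The identifiers of other genes could not be paired with symbols, so markers of tenocytes, leukocytes and endothelial cells, the receptors and the NF-κB components are not analysed here, and the label of the cells was not checked.

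With IL-1β, the 3 chemokine genes were higher in every library, from a middling control level for Cxcl1, a low one for Cxcl3 and a nearly absent one for Cxcl2, with Cxcl1 among the 12 highest genes of each IL-1β library. Cxcl1 rose about 690-fold, Cxcl3 about 804-fold and Cxcl2 about 479-fold by the ratio of mean FPKM as deposited, before scaling between libraries. The fold of Cxcl2 rests on a control level of 8 recovered reads in all (or a multiple of 8). Each of the 3 genes passed an adjusted p under 0.05 and a log2 fold change over 1 in limma, as did 5.37% of all genes tested in this direction. The 3 IL-1β libraries lay above the 3 control libraries for each of the 3 genes, which was also true of 25.5% of the genes tested. In these bulk samples, more cells with the transcript and more transcript per cell cannot be told apart.

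Cxcl1, a main neutrophil attractant of rat stromal cells, had 5.92, 3.83 and 6.45 FPKM in control libraries 1, 2 and 3 and 4335, 3182 and 3671 FPKM in IL-1β libraries 1, 2 and 3. The lowest IL-1β library was far above the highest control library, and control library 2 was the lowest of its group. The recovered reads were 212, 130 and 250 in the control libraries and 149223, 127352 and 125192 in the IL-1β libraries. On the log2(FPKM + 0.1) scale after scaling between libraries, the change was 9.37 with a standard error of 0.20 and an adjusted p of 1.84e-07 in limma. Among all 19133 genes ordered by FPKM, Cxcl1 stood at places 7179, 8505 and 6969 in the control libraries and at places 10, 12 and 11 in the IL-1β libraries. The gene was thus of middling level in untreated tenocytes and among the 12 highest with IL-1β.

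Cxcl3, a close relative with the same receptor, had 0.706, 0.875 and 0.783 FPKM in control libraries 1, 2 and 3 and 705.1, 559.7 and 636.8 FPKM in IL-1β libraries 1, 2 and 3. Neither group overlapped the other, and the control values differed between themselves by less than their counting error. They rested on 40, 47 and 48 reads, against 38427, 35468 and 34379 reads with IL-1β. The log2 change was 9.42 with a standard error of 0.10 and an adjusted p of 1.02e-08 in limma. Its place among all genes went from between 11364 and 11606 in the control group to 93, 118 and 102 in IL-1β libraries 1, 2 and 3.

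Cxcl2, the gene of MIP-2, had 0.0965, 0.102 and 0.178 FPKM in control libraries 1, 2 and 3 and 74.9, 45.5 and 60.03 FPKM in IL-1β libraries 1, 2 and 3. The IL-1β libraries held 1492, 1054 and 1185 reads, whereas the control libraries held 2, 2 and 4, near the floor of 3 reads (between 0.134 and 0.153 FPKM in those libraries). These reads go with an implied length of 536 bases, the shortest of the 3 genes and one that looks short for a whole transcript, and with a multiple of that length the reads would be the same multiple and lie above the floor. In control library 1, the exact 95% counting interval ran from 0.0117 to 0.349 FPKM. Cxcl2 passed the filter on low values only through the IL-1β group. The log2 change was 8.003 with a standard error of 0.21 and an adjusted p of 4.11e-07 in limma, and it depended on the pseudocount, being 5.70 with a pseudocount of 1 and 8.76 with 0.01. Its place among all genes went from between 13549 and 14180 to 1031, 1658 and 1282.

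**Figure D1:**
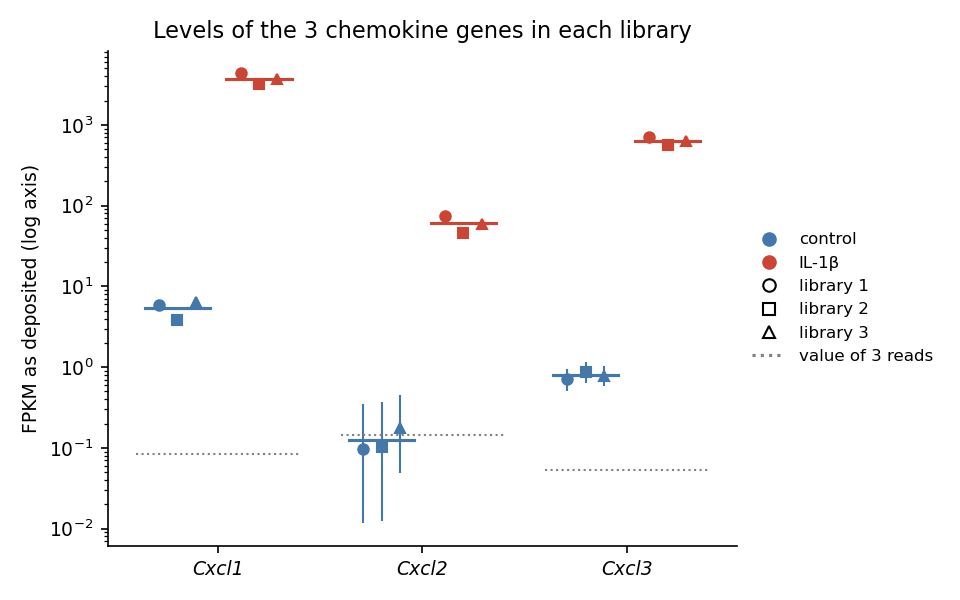
FPKM (log axis) of Cxcl1, Cxcl2 and Cxcl3 in the 3 control and 3 IL-1β libraries. Points are libraries with exact 95% Poisson counting intervals, short lines are group means, and the dotted line is the mean value of 3 recovered reads on that gene. The groups do not overlap for any of the 3 genes, and only the control values of Cxcl2 lie at the dotted line.

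The recovered reads give a fold change that needs no pseudocount. By summed reads per scaled depth, Cxcl1 was 651-fold higher with IL-1β (95% counting interval 601 to 707) and Cxcl3 770-fold higher (650 to 918). For Cxcl2 the ratio was 448-fold with an interval of 227 to 1037, which takes in the estimates of both other genes. The interval of Cxcl2 holds for the smallest fitting length of 536 bases, and with a longer gene and more reads in proportion it would be narrower. These intervals cover counting error only and leave out the spread between libraries. Limma-voom on the same reads, which weights a value by its depth, gave log2 changes of 9.38 for Cxcl1 (95% interval 8.81 to 9.95), 9.58 for Cxcl3 (8.85 to 10.3) and 8.58 for Cxcl2 (6.01 to 11.2), with adjusted p of 1.67e-08, 6.24e-08 and 0.000294. The direction was thus clear for each gene, while the size for Cxcl2 was known only within a wide interval.

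Without both libraries numbered 1, a fit chosen after seeing the data, the log2 changes in limma were 9.33 for Cxcl1, 7.74 for Cxcl2 and 9.27 for Cxcl3, with adjusted p of 1.81e-05, 2.18e-05 and 2.27e-06. An exact permutation test of 3 libraries against 3 gave p = 0.1 for each gene, which is the smallest value this design allows.

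Among the 12408 genes tested, Cxcl3 had the second largest log2 change, Cxcl1 the third and Cxcl2 the twelfth. With a pseudocount of 1, Cxcl1 stood at place 1, Cxcl3 at 4 and Cxcl2 at 17, with a pseudocount of 0.01 they stood at 7 (Cxcl1), 5 (Cxcl3) and 10 (Cxcl2), and in limma-voom at 6, 4 and 11 in the same order of genes. With quantile normalization Cxcl1 stood at 1 and Cxcl3 at 3, with the FPKM values as deposited Cxcl3 stood at 1, and without control library 2 Cxcl1 stood at 5, so the order at the very top was not stable under these choices. Plotted against level, Cxcl1 had both a large change and a high level, as a few other genes did. Its reads made up 0.403%, 0.295% and 0.341% of the recovered reads of IL-1β libraries 1, 2 and 3.

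**Figure D2:**
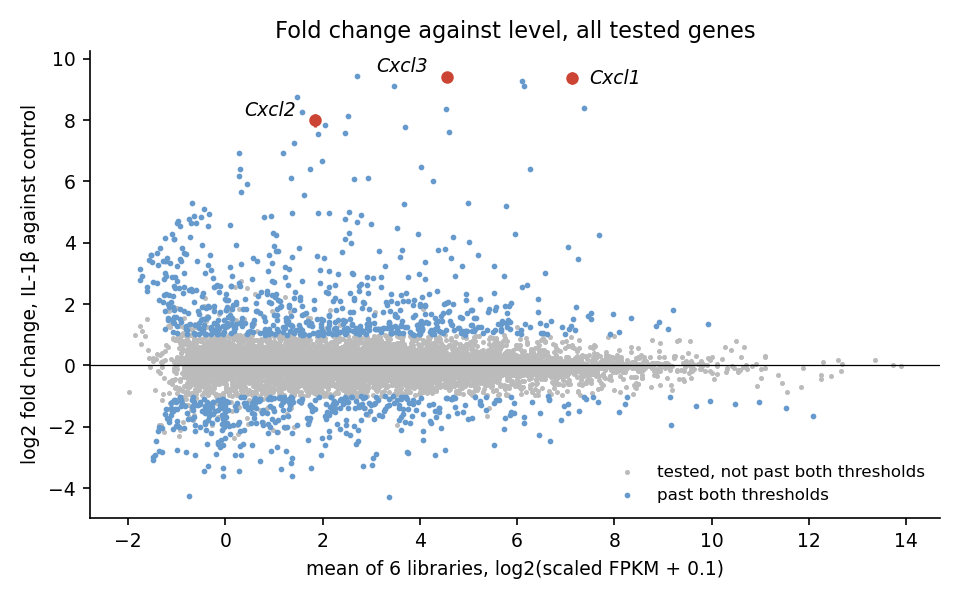
Log2 fold change (IL-1β against control, y axis) against the mean log2(scaled FPKM + 0.1) of the 6 libraries (x axis) for the 12408 genes tested. Blue points passed both thresholds, and the red points with standard errors are Cxcl1, Cxcl2 and Cxcl3, at log2 changes of 9.37, 8.003 and 9.42.

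Summed over the 3 genes, the reads made up 0.443% ± 0.065 of each IL-1β library and 0.000624% ± 0.00012 of each control library (SD, n = 3 each). Of the reads of all 666 genes called higher with IL-1β, the 3 chemokine genes held 5.45% ± 0.47 with IL-1β and 0.0320% ± 0.0059 without it. This is a description of the members' weight, since they are among the 666.

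The order of the levels was the same in all 6 libraries, with Cxcl1 above Cxcl3 and Cxcl3 above Cxcl2, and the ranges of neighbouring genes did not overlap within either group. Of the summed FPKM of the 3 genes, Cxcl1 made up 84.9% ± 4.57 without and 84.3% ± 0.41 with IL-1β. Cxcl3 made up 13.1% ± 4.43 and 14.4% ± 0.53, and Cxcl2 made up 1.99% ± 0.50 and 1.35% ± 0.13 (SD, n = 3 each). The mix of the 3 transcripts was therefore dominated by Cxcl1 before and after IL-1β, and the mean share of each differed between the groups by less than 2 SD of the control group.

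Whether the 3 genes changed by different amounts was asked for the 3 pairs, through the log2 ratio of the genes within each library. For Cxcl3 against Cxcl1 the ratio was −2.60 ± 0.51 without and −2.55 ± 0.06 with IL-1β (SD, n = 3 each). The difference of 0.05 (standard error 0.30) was smaller than the spread, and the groups overlapped (exact permutation test, two-sided, p = 1, adjusted over the 3 pairs p = 1). This value depended on 1 control library and on the pseudocount, since it was 0.35 (standard error 0.045) without control library 2 (exact permutation p = 0.2) and −0.72 (standard error 0.23) with a pseudocount of 1 (exact permutation p = 0.1), each p being the smallest possible. The log2 change of Cxcl2 minus that of Cxcl1 was −1.37 (standard error 0.21), and that of Cxcl3 minus that of Cxcl2 was 1.42 (standard error 0.21). The ratios of the groups did not overlap in either pair (exact permutation p = 0.1 in each, the smallest possible, and 0.15 adjusted over the 3 pairs).

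Much of the gap of Cxcl2 came with the pseudocount, which is as large as its control values. With no pseudocount, Cxcl2 minus Cxcl1 was −0.52 (standard error 0.26), with overlapping groups, and Cxcl3 minus Cxcl2 was 0.72 (standard error 0.31), with groups that did not overlap. The exact permutation p were then 0.3 and 0.1 (0.4 and 0.3 adjusted over the 3 pairs), in a design that cannot go below 0.1. Whether Cxcl2 rose by less than the other 2 genes was not settled by these libraries.

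Within the IL-1β group, the 3 genes varied between libraries in the same order. Library 1 was the highest, library 3 the middle and library 2 the lowest for Cxcl1, Cxcl2 and Cxcl3 alike. After scaling, library 1 stood at 118%, 126% and 113% of the group mean and library 2 at 84.8%, 75.2% and 87.8% for Cxcl1, Cxcl2 and Cxcl3. The coefficients of variation were 16.7%, 25.6% and 12.6%, against counting errors of 0.273%, 2.84% and 0.526%, so the spread between libraries exceeded the counting error.

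The same order of IL-1β libraries was seen in 295 of the 666 genes called higher (44.3%) and in 17.3% of all genes tested. The median gene called higher stood at 108% of its group mean in library 1 and 93.8% in library 2, and its coefficient of variation was 11.98%. The chemokine genes thus shared the library order of many genes that rose, and because the genes come from the same libraries they are not replicates of this order. Without IL-1β library 1, the log2 changes of Cxcl1, Cxcl2 and Cxcl3 were 9.24, 7.82 and 9.33, and without IL-1β library 2 they were 9.48, 8.19 and 9.51.

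In the control group, the 3 genes did not share an order. Library 3 was the highest for Cxcl1 and Cxcl2 and library 2 for Cxcl3. The coefficient of variation of Cxcl1 (25.7%) was above its counting error of 7.12%, with library 2 at 70.7% of the group mean. For Cxcl2 (35.6% against 61.2%) and Cxcl3 (10.1% against 14.9%), the spread was below the counting error. No difference between control libraries was detectable at this depth for Cxcl3, whereas for Cxcl2 the counting error rests on the smallest reads that fit, 8 in all, and would be lower with a multiple of them.

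**Figure D3:**
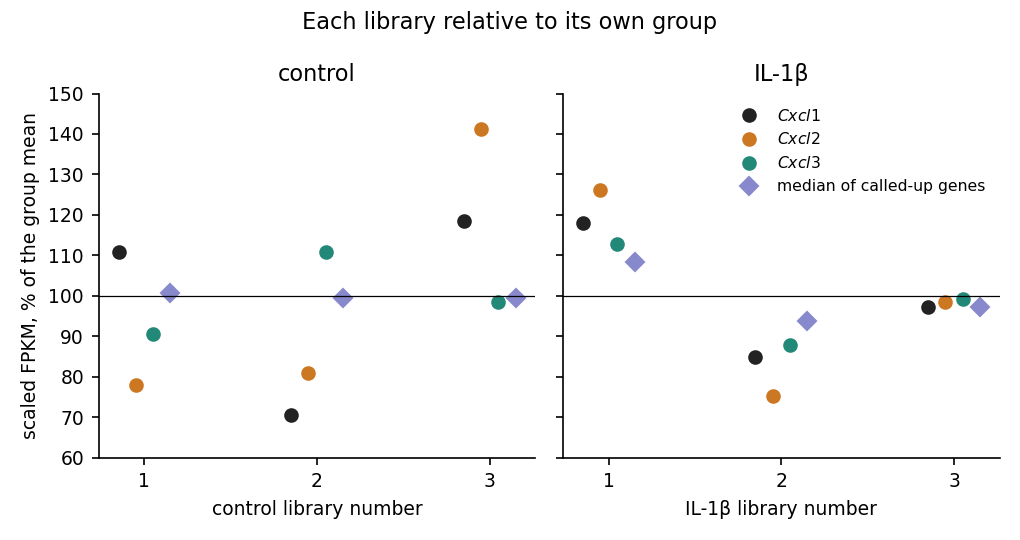
Scaled FPKM of each library as a percentage of its group mean (y axis) by library number (x axis), for Cxcl1, Cxcl2, Cxcl3 and the median of the 666 genes called higher with IL-1β. In the IL-1β panel, library 1 lies above and library 2 below 100% for all 4, while the control panel shows no shared order.

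The genes with the most similar profile were sought among all tested genes by the Euclidean distance of the log2 values, relative to the control mean, over the 6 libraries. For Cxcl3 the nearest was ENSRNOG00000002843 at a distance of 0.37, which was also the nearest to Cxcl1 at 0.70, while Cxcl1 and Cxcl3 lay 0.73 apart. This gene went from 2.12, 2.71 and 3.00 FPKM in control libraries 1, 2 and 3 to 2075, 1469 and 1742 FPKM in IL-1β libraries 1, 2 and 3. Its log2 change was 9.29 with a standard error of 0.16 (adjusted p = 8.3e-08 in limma), and its IL-1β libraries had the same order as those of the chemokine genes. The next nearest to Cxcl3, at 0.64, had another order of IL-1β libraries, with 1629, 1685 and 1796 FPKM in libraries 1, 2 and 3. For Cxcl2 the nearest was ENSRNOG00000017539 at 0.80, whereas Cxcl1 lay 2.42 and Cxcl3 2.51 from it. Cxcl1 and Cxcl3 lay 0.73 apart although their log2 changes were 9.37 and 9.42, so this distance does not reflect the size of the change alone. The larger distances of Cxcl2 from these genes went with its log2 change of 8.003, which depended on the pseudocount. No symbol is paired with either identifier.

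The direction and the call of each of the 3 genes held under all 18 other processing choices that were fitted. Changes of filter, intensity trend or replicate block and a test against a 2-fold change leave the log2 change as it is by construction. For those fits only the call could differ. The log2 change ranged from 9.14 to 9.61 for Cxcl1, from 8.42 to 9.58 for Cxcl3 and from 5.70 to 8.76 for Cxcl2. The adjusted p of these fits ran from 1.3e-08 to 1.81e-05 for Cxcl1, from 5.63e-09 to 4.36e-06 for Cxcl3 and from 2.63e-07 to 0.000696 for Cxcl2 (limma).

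**Figure D4:**
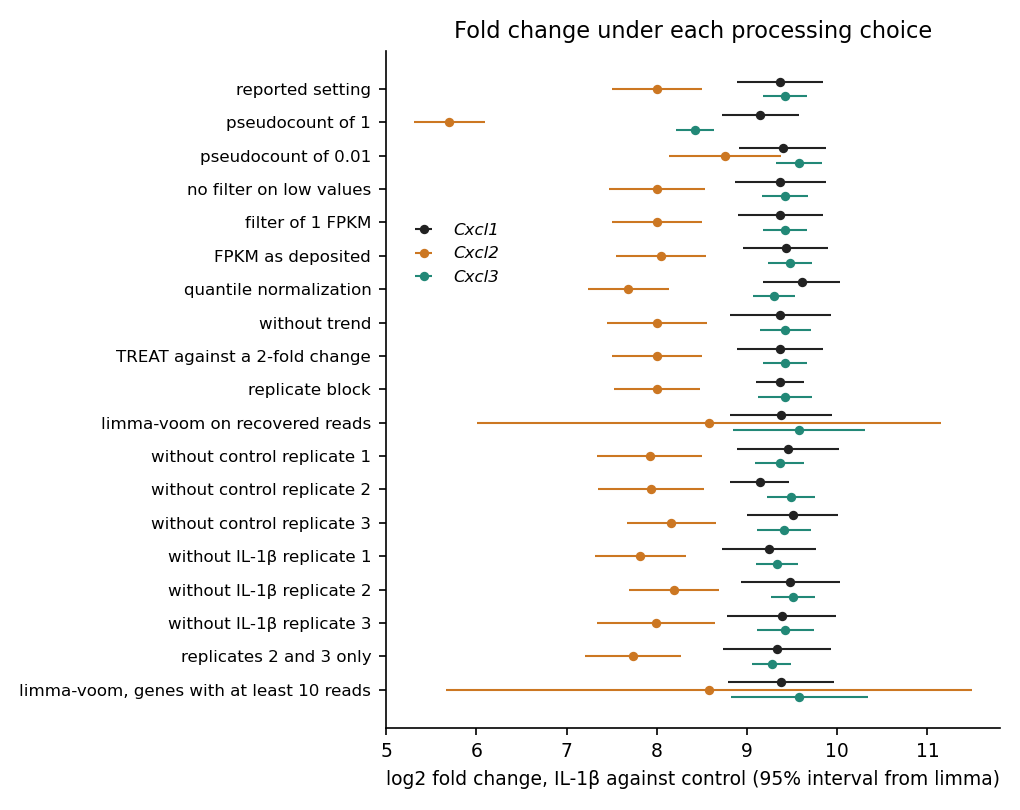
Log2 fold change with its 95% interval from limma (x axis) for Cxcl1, Cxcl2 and Cxcl3 under the reported setting and each alternative (rows). All points lie above 5, the intervals of Cxcl1 and Cxcl3 overlap except with a pseudocount of 1, and Cxcl2 moves from 5.70 to 8.76 with the pseudocount.

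The 3 genes are members of a family of similar sequence, and how reads that fit several genes were counted is not given in the sources used here, so the split of reads between them is uncertain. The gene lengths implied by the reads were 926 bases for Cxcl1, 536 for Cxcl2 and 1466 for Cxcl3, each the smallest whole length that turns every value into whole reads.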

How the data were processed

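RNA was measured in 6 libraries of rat tenocytes, grouped by the sample titles. The authors captured polyadenylated RNA, sequenced paired-end libraries on DNBSEQ-T7 and deposited FPKM values, 1 column per library, without pooling. The submitters' processing notes name HISAT2 and featureCounts; versions, genome build, annotation and strand setting are not given in the sources used here. The symbols of the 3 identifiers were supplied with the selection of the genes and could not be checked, since the RefSeq table (GRCr8) lists Ensembl identifiers for 0 of its genes. The genes, lists and tests were chosen with earlier results of these data known. Named genes were the 3 chemokine genes and, for each, the 2 tested genes with the nearest profile, of which at most 2 identifiers are printed.

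Whole reads were recovered from the FPKM steps (Python 3.11.15, numpy 2.4.6, pandas 2.3.3, scipy 1.17.1): relative depths from values under 0.15 FPKM, absolute depth from gene lengths being whole bases, tolerance 0.02 read. All 19133 genes (100% of values) came out whole, and on simulated reads 99.0% of 14407 genes with at least 20 reads were recovered exactly. The simulation used the implied smallest lengths, so it does not test whether a true length was a multiple of them. The floor was 3 reads. Libraries were scaled to each other with size factors (median of ratios), and the test used log2(FPKM + 0.1), a scale that understates the change of low genes. The 12408 genes that reached 0.5 FPKM in 3 or more libraries were fitted with limma 3.58.1 (R 4.3.3; intensity trend, two-sided) with Benjamini-Hochberg adjustment, in place of the study's own count-based test. A gene was called where its adjusted p was under 0.05 and its log2 fold change over 1 in size. On simulated reads for the comparison of IL-1β with control, 194 of 194 changed and 9 of 11748 unchanged genes were called. Only genes that passed the filter are counted. The changed genes were drawn from those with more than 20 expected control reads a library, and all genes had the same simulated dispersion. The result therefore does not cover genes with as few control reads as Cxcl2, which had 8 in all. Alternatives were other pseudocounts, filters, scalings and limma settings, the replicate number as a block, each library left out, limma-voom on the recovered reads and replicates 2 and 3 only. Figures were drawn with matplotlib 3.10.9.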

Additional observations from a re-analysis of the deposited data

How the results depend on the processing

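Each of the 3 chemokine genes kept its direction and its side of both thresholds under 18 alternatives, some of which cannot move the log2 change. With each library left out in turn the log2 change ranged from 9.14 to 9.50 for Cxcl1, 7.82 to 8.19 for Cxcl2 and 9.33 to 9.51 for Cxcl3. The number of genes past both thresholds (1078) fell to 697 with a pseudocount of 1 and to 520 with TREAT, a limma test against a change of 2-fold that by construction calls fewer. It rose to 1334 without a filter on low values and to 1539 in limma-voom on genes with at least 10 reads, a fit chosen after seeing the data, and both of these test more genes. It was 1042 to 1109 with a library left out.

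The difference in log2 change between members moved with the pseudocount, which lifts low control values. It was −3.45 (pseudocount of 1), −0.64 (0.01) and −0.52 (none) for Cxcl2 minus Cxcl1, and 2.72, 0.82 and 0.72 for Cxcl3 minus Cxcl2. For Cxcl3 minus Cxcl1 it was −0.72 with a pseudocount of 1. With a library left out these 3 differences ranged from −1.54 to −1.21, from 1.25 to 1.56 and from −0.10 to 0.35.

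The labels number the libraries of both groups 1 to 3 without saying that a number marks a shared animal or culture. Across genes, libraries of the same number deviated from their own group with correlations of 0.021 to 0.094, and 4 of 6 libraries correlated best with their own number. The second principal component also set the libraries numbered 1 apart from the others. Whether a number marks a shared origin was not tested. Since the labels name no pairs, the main fit took none. With a block for the replicate number, 1080 genes were called. In this balanced design a block cannot move the log2 changes, only their errors. The standard errors of Cxcl1, Cxcl2 and Cxcl3 went from 0.203, 0.212 and 0.104 to 0.105, 0.188 and 0.119. The adjusted p in limma were then 3.65e-06, 1.67e-05 and 4.36e-06, and the 3 genes stayed past both thresholds.

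The alternatives planned for lists of receptors, NF-κB components and cell type markers were left out for want of symbols for those genes. Depth limits most the control level of Cxcl2, with 2 to 4 recovered reads a library, and next that of Cxcl3, with 40 to 48.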
